A study of Bos taurus with 6 samples.

Results

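The Polycomb repressor subunits examined here are 10 genes, found by gene name among the 32183 genes listed for each culture of rumen epithelial primary cells (REPC). The PRC2 members are EZH2, EZH1, EED, SUZ12 and JARID2, and the PRC1 members are RNF2, BMI1, CBX2, CBX7 and CBX8. Each name stood on 1 entry, and all 10 were among the 15813 genes tested, which had a mean FPKM (mapped fragments scaled to transcript length and to library size) of at least 0.1. The groups were 3 control REPC cultures and 3 cultures that received butyrate at 5 mM during 24 h, all measured by RNA-seq. All cells came from 1 Holstein bull calf, aged 2 weeks and raised on milk replacer, so the p-values measure the spread between cultures and hold no difference between animals. FPKM already corrects for transcript length, and levels can therefore be compared between genes.

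Polycomb proteins keep developmental genes silent by modifying histones. PRC2 places the H3K27me3 methylation mark on histone H3 through EZH2 or its paralogue EZH1, and PRC1 attaches ubiquitin to histone H2A through RNF2 or its paralogue RING1. The CBX proteins of canonical PRC1 bind H3K27me3, which links both complexes. EZH2 is typically abundant in dividing cells, whereas EZH1 persists in resting and differentiated cells. Butyrate, a short-chain fatty acid made by rumen microbes, inhibits histone deacetylases.

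After butyrate, EZH2 fell 2.41-fold and JARID2 rose 2.61-fold as ratios of group mean FPKM. EZH1 rose, SUZ12 fell, and a small rise of EED did not separate the groups. In PRC1, the catalytic RNF2 and its partner BMI1 rose, whereas CBX2, CBX7 and CBX8 did not pass the test. In total 5 of the 10 members rose and 2 fell with a Benjamini-Hochberg (BH) adjusted p from limma under 0.05. The same test called 58.4% of all genes tested, 32.5% higher and 25.9% lower, so the number of members called is close to the background. None of the members passed the study's thresholds for a differentially expressed gene (DEG), which 3.97% of all genes passed. These are a Bonferroni-adjusted p under 0.05 with a log2 fold change beyond 2. The study applied them to Cufflinks results and here they were applied to limma, so a DEG call here can differ from the study's. In limma, 8 of the 10 members had an unadjusted p under 0.05, as did 62.7% of all genes tested. The values of the groups did not overlap for 7 members, with butyrate above control for EZH1, JARID2, RNF2 and BMI1 and below it for EZH2, SUZ12 and CBX2. Among all genes tested, 65.0% did not overlap, 36.1% with butyrate above control and 28.9% with butyrate below it.

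**Figure D1:**
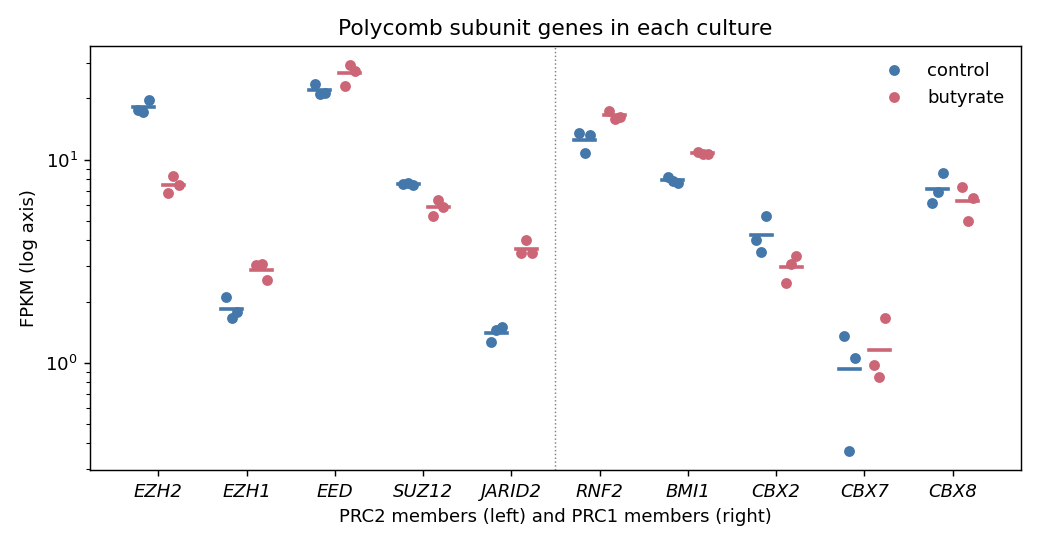
FPKM on a log axis of the 5 PRC2 members (left) and the 5 PRC1 members (right) in each of 3 control and 3 butyrate cultures, with a bar at each group mean. EZH2 lies between 17.2 and 19.7 in control and between 6.83 and 8.30 after butyrate, while the CBX7 values of the groups overlap.

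EZH2, the main H3K27 methyltransferase of dividing cells, lies on chromosome 4 from 112815326 to 112848421 (UMD3.1, as listed in the files). Its FPKM in replicates 1 to 3, the order used throughout, was 17.6, 17.2 and 19.7 in control and 6.83, 8.30 and 7.48 after butyrate. Every butyrate value was below every control value. The log2 fold change was -1.26 (SE = 0.10, limma, BH-adjusted p = 1.2e-05), and 6.01% of all genes tested fell by more. EZH2 was the only member with a Bonferroni-adjusted p under 0.05 from limma, at 0.0196, a level that 12.8% of all genes reached. The uncharacterised entry LOC107132440 overlaps the end of EZH2 by 1529 bp, but its FPKM did not exceed 0.156 in any culture.

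EZH1, on chromosome 19 from 43395927 to 43428270, encodes the alternative and less active methyltransferase. Its FPKM was 2.10, 1.67 and 1.78 in control and 3.02, 3.05 and 2.54 after butyrate. The groups did not overlap, and the log2 fold change was 0.61 (SE = 0.17, limma, BH-adjusted p = 0.0151). The call was lost in 3 of 16 alternatives. Quantile normalization moved the log2 fold change most, to 0.32 (limma, BH-adjusted p = 0.146), and the adjusted p was 0.0523 without butyrate replicate 1 and 0.0522 without butyrate replicate 2.

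Both methyltransferases were then compared within each culture. The FPKM of EZH2 was 9.94 ± 1.39 (SD, n = 3) times that of EZH1 in control and 2.64 ± 0.346 (SD, n = 3) times after butyrate. EZH1 made up 9.24% ± 1.24 (SD, n = 3) of the summed FPKM of the pair in control and 27.6% ± 2.72 (SD, n = 3) after butyrate. EZH2 thus remained the more abundant transcript in all 6 cultures. The log2 ratio of EZH2 to EZH1 changed by -1.87 with butyrate (SE = 0.16), without overlap between groups (two-sided exact permutation p = 0.1, the smallest that 3 cultures against 3 allow). This p is the smallest possible for every single gene or ratio here.

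EED and SUZ12 are non-catalytic core subunits, EED reading H3K27me3 and SUZ12 holding the complex together. EED, on chromosome 29 from 9325132 to 9356320, had an FPKM of 23.7, 21.1 and 21.3 in control and 23.1, 29.2 and 27.5 after butyrate. Butyrate replicate 1 lay within the control range. The log2 fold change of 0.26 passed narrowly (SE = 0.10, limma, BH-adjusted p = 0.0457), and the call was lost in 10 of 16 alternatives. These include the fits without butyrate replicate 2, with an adjusted p of 0.158 from limma, and without butyrate replicate 3 or any one control culture.

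SUZ12, on chromosome 19 from 18505457 to 18545213, had an FPKM of 7.55, 7.66 and 7.53 in control and 5.30, 6.31 and 5.85 after butyrate. All butyrate values were lower, and the coefficient of variation of the control cultures was 0.905% (n = 3). The log2 fold change was -0.38 (SE = 0.11, limma, BH-adjusted p = 0.0152). Rescaling to TPM, which gives every culture the same total, ended the call, with a log2 fold change of -0.26 and an adjusted p of 0.0663 from limma.

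Among EZH2, EED and SUZ12, the relative transcript levels therefore shifted. The FPKM of EED was 1.22 ± 0.133 (SD, n = 3) times that of EZH2 in control and 3.52 ± 0.144 (SD, n = 3) times after butyrate. The FPKM of EZH2 was 2.40 ± 0.192 (SD, n = 3) times that of SUZ12 in control and 1.29 ± 0.0189 (SD, n = 3) times after butyrate. The groups overlapped in neither ratio.

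JARID2, a DNA-binding accessory subunit that helps to recruit PRC2, had the largest rise among the members. It lies on chromosome 23 from 41165797 to 41394336. Its FPKM was 1.26, 1.44 and 1.49 in control and 3.46, 4.01 and 3.47 after butyrate, with every butyrate value above every control value. The log2 fold change was 1.32 (SE = 0.17, limma, BH-adjusted p = 0.00016), and 14.6% of all genes tested rose by more. Its FPKM was 0.0769 ± 0.00629 (SD, n = 3) times that of EZH2 in control and 0.484 ± 0.0211 (SD, n = 3) times after butyrate.

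**Figure D2:**
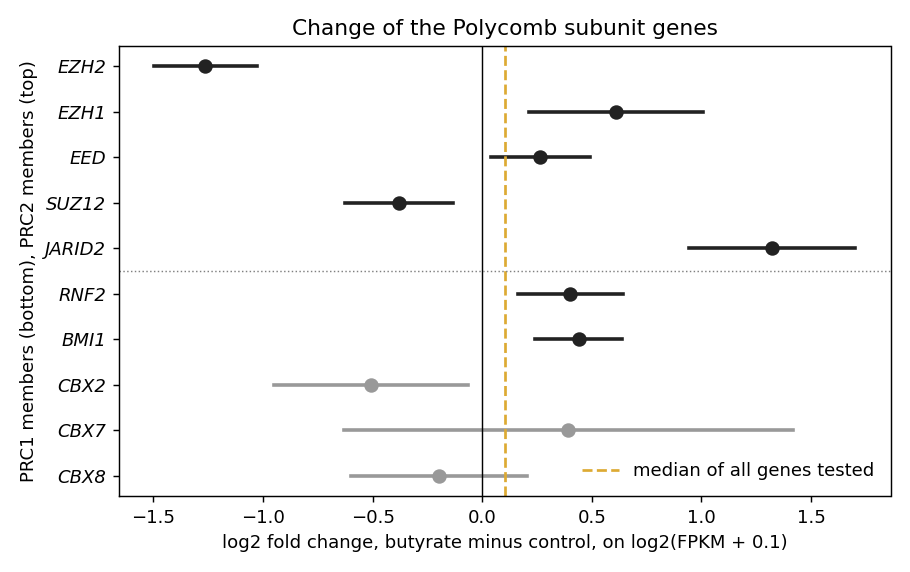
Log2 fold change of each member, butyrate minus control on log2(FPKM + 0.1), with its 95% confidence interval from limma over 3 cultures against 3. Black marks members with a BH-adjusted p under 0.05 and grey the others, and the dashed line is the median of all genes tested, 0.10. EZH2 and JARID2 lie farthest from 0 at -1.26 and 1.32.

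Other PRC2 components were read as a list, which does not hold JARID2. Of 9 listed accessory or histone-binding genes, 6 were tested, 4 fell and none rose. Among all genes tested, 25.9% fell and 32.5% rose. The median log2 fold change of the list was -0.30 against 0.10 for all genes tested. MTF2 and AEBP2, with log2 fold changes of -0.16 and 0.08, were not called. PHF19, which belongs to the Polycomb-like proteins that guide PRC2 to CpG islands, had an FPKM of 7.03, 7.52 and 5.67 in control and 1.09, 1.14 and 0.312 after butyrate. Its log2 fold change was -3.01 (SE = 0.40, limma, BH-adjusted p = 0.00023). The histone chaperone RBBP7 went from 401, 378 and 399 to 171, 169 and 183, with a log2 fold change of -1.17 (limma, BH-adjusted p = 2.0e-07). RBBP4, its paralogue, fell by 0.19 on the log2 scale and the Polycomb-like PHF1 by 0.42, and both calls were lost with TPM and in several fits that left out 1 culture.

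PHF19 and JARID2 belong to alternative forms of PRC2, and their order reversed between the groups. In control cultures the FPKM of PHF19 was between 3.81 and 5.59 times that of JARID2. After butyrate the FPKM of JARID2 was between 3.18 and 11.1 times that of PHF19. The highest ratio was that of butyrate replicate 3, where the deposited confidence bounds imply only 5.1 fragments for PHF19. The reversal concerns this pair of genes only. The accessory genes MTF2 and PHF1 had mean FPKMs above that of JARID2 in both groups, after butyrate 4.60 and 7.08 against 3.64.

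RNF2, also known as RING1B, is a ubiquitin ligase of PRC1 and lies on chromosome 16 from 67600960 to 67609560. Its FPKM was 13.5, 10.8 and 13.2 in control and 17.5, 15.9 and 16.2 after butyrate. The groups did not overlap, with a log2 fold change of 0.40 (SE = 0.10, limma, BH-adjusted p = 0.0101). BMI1, the RING finger partner of RNF2 in canonical PRC1, lies on chromosome 13 from 23709228 to 23713074. Its FPKM was 8.24, 7.84 and 7.64 in control and 10.9, 10.7 and 10.7 after butyrate, again without overlap. The log2 fold change was 0.44 (SE = 0.09, limma, BH-adjusted p = 0.00237). Both calls held in each of the 16 refitted alternatives, but neither gene passed with Bonferroni adjustment.

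Of the CBX proteins, which bring PRC1 to H3K27me3, CBX8 and CBX2 are neighbours on chromosome 19, from 53360163 to 53362249 and from 53368035 to 53377419, with 5786 bp between them. CBX2 had an FPKM of 4.02, 3.50 and 5.29 in control and 2.47, 3.05 and 3.36 after butyrate. All butyrate values were lower, but the adjusted p missed the threshold. Its log2 fold change was -0.51, with a 95% interval from -0.95 to -0.06 (limma, BH-adjusted p = 0.0510). CBX2 was called lower in 6 of the 16 alternatives, among them the fit without control replicate 2 (limma, BH-adjusted p = 0.0373).

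CBX8 had an FPKM of 6.13, 6.90 and 8.55 in control and 7.36, 5.01 and 6.47 after butyrate, and the groups overlapped. Its log2 fold change was -0.20 with a 95% interval from -0.60 to 0.20 (limma, BH-adjusted p = 0.363). CBX7, on chromosome 5 from 111106427 to 111123047, had an FPKM of 1.36, 0.367 and 1.06 in control and 0.974, 0.848 and 1.65 after butyrate. The width of the deposited confidence bounds implies only 1 to 5 fragments per culture for CBX7. A change of CBX7 was not detectable at this depth, with a 95% interval for the log2 fold change from -0.63 to 1.42 (limma, BH-adjusted p = 0.477), and its sign turned without control replicate 2. For the other 9 members, the bounds imply between 28.5 fragments (CBX2) and 394 fragments (EED) per culture.

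Among the 25 other PRC1 and variant PRC1 genes, all of them tested, 5 rose and 7 fell, with a median log2 fold change of -0.07. Over all genes tested, 32.5% rose and 25.9% fell, so calls in this list were not more frequent than the background. BCOR, a scaffold of a variant PRC1, rose from 2.82, 3.65 and 3.96 to 9.44, 9.09 and 9.96 FPKM, with a log2 fold change of 1.44 (limma, BH-adjusted p = 4.3e-05). Its partner in that complex, PCGF1, fell from 6.59, 6.85 and 8.07 to 3.35, 4.04 and 2.99 FPKM, with a log2 fold change of -1.03 (limma, BH-adjusted p = 0.00040). SCMH1, a sterile alpha motif protein associated with canonical PRC1, and L3MBTL2, a subunit of the E2F6-containing variant, had log2 fold changes of -1.40 and -1.22 (limma, BH-adjusted p = 0.00013 and 5.0e-05). PCGF2, which can take the place of BMI1 and was named after its values were seen, rose from between 0.867 and 1.23 to between 1.94 and 2.41 FPKM, and BMI1 still made up 83.2% ± 1.34 (SD, n = 3) of the pair after butyrate, against 88.3% ± 2.02 (SD, n = 3) in control. RNF2 made up 39.1% ± 2.60 (SD, n = 3) of the summed FPKM of RING1 and RNF2 in control and 47.5% ± 3.23 (SD, n = 3) after butyrate.

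**Figure D3:**
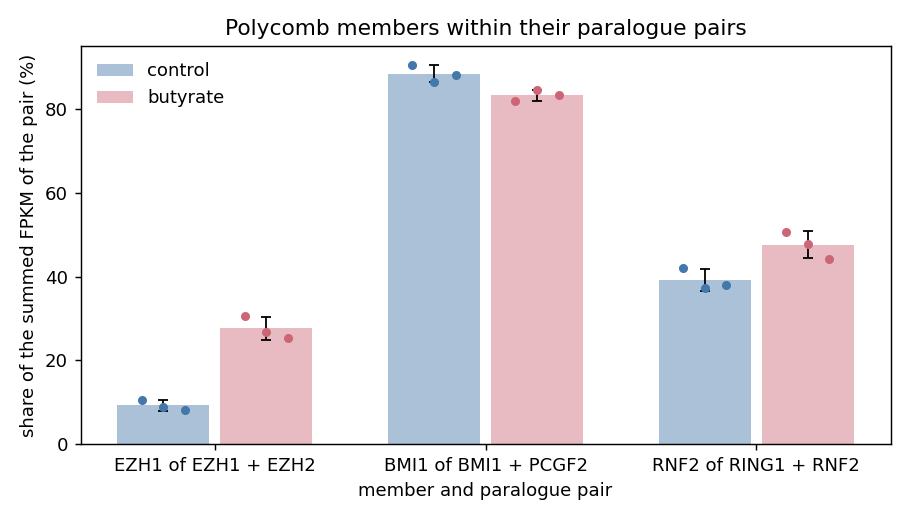
Share in percent of EZH1, BMI1 and RNF2 in the summed FPKM of each with its paralogue (EZH2, PCGF2 and RING1, respectively). Bars are means of 3 control or 3 butyrate cultures, whiskers are SDs and points are single cultures. The EZH1 share goes from 9.24% to 27.6%, the BMI1 share from 88.3% to 83.2% and the RNF2 share from 39.1% to 47.5%, without overlap between groups.

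In the order of FPKM, EED was the highest member and CBX7 the lowest in both groups. Control cultures followed with EZH2, RNF2, BMI1, SUZ12, CBX8, CBX2, EZH1 and JARID2, where BMI1 and SUZ12, SUZ12 and CBX8, and JARID2 and CBX7 overlapped in their values. After butyrate the order behind EED was RNF2, BMI1, EZH2, CBX8, SUZ12, JARID2, CBX2 and EZH1. Here EZH2 and CBX8, CBX8 and SUZ12, and CBX2 and EZH1 overlapped. EZH2 thereby moved from rank 2 to rank 4 and JARID2 from rank 9 to rank 7.

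Of the 5 PRC2 members 3 rose and 2 fell. Of the 5 PRC1 members 2 rose. CBX2, lower in every butyrate culture, narrowly missed a call (limma, BH-adjusted p = 0.0510). Over all genes tested, 32.5% rose and 25.9% fell. A difference between the complexes was not tested. The PRC2 members had a median log2 fold change of 0.26 and a mean of 0.11, ranging from -1.26 to 1.32. The PRC1 members had a median of 0.39 and a mean of 0.11, ranging from -0.51 to 0.44. For all genes tested the median was 0.10 and the mean 0.24. The median of the PRC1 members was the value of CBX7 and became -0.10 without control replicate 2. Rescaling to TPM moved the median of all genes to 0.23 and quantile normalization to -0.05. Apart from CBX7, which quantile normalization turned to -0.16, each member kept its sign under these scalings.

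The enzymes that remove Polycomb marks were read together with the ASXL cofactors of one of them, BAP1. Of 8 listed genes 7 were tested, none rose, and only BAP1, the catalytic subunit of an H2A deubiquitinase complex, fell, from 13.4, 14.9 and 16.8 to 10.3, 10.2 and 9.68 FPKM (log2 fold change -0.57, limma, BH-adjusted p = 0.00134). The median log2 fold change of the 7 genes was -0.23.

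Genes that are textbook targets of Polycomb repression were read next, although their occupancy in REPC was not analysed here. Of the 32 in the list, 31 were listed in the files, 11 were at 0 in all cultures and 13 were tested. Of the 13, 8 rose and 1 fell. The filter on low FPKM keeps a silent gene only if it became detectable in some cultures, so neither these counts nor the median of the tested genes describes the whole list. WNT1 and SOX17 were at 0 in all control cultures and passed the filter through butyrate cultures alone. CDKN1C, an inhibitor of cyclin-dependent kinases, passed the DEG thresholds and rose from 6.16, 7.85 and 5.18 to 29.3, 37.2 and 31.1 FPKM, with a log2 fold change of 2.34 (limma, Bonferroni-adjusted p = 0.00373).

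The genes of the INK4 locus, CDKN2A and CDKN2B, as well as WNT1, SOX17 and HAND1, were picked after their values were seen. CDKN2A, which restrains the cell cycle through RB and p53, was already at 349, 361 and 357 FPKM in control and at 491, 567 and 526 after butyrate. CDKN2B went from 26.3, 24.6 and 23.4 to 74.8, 81.1 and 78.4 FPKM. Their log2 fold changes were 0.57 and 1.65 (limma, BH-adjusted p = 2.8e-05 and 2.0e-07). WNT1, a developmental signalling ligand, was listed at 0 in all control cultures and at 1.98, 1.96 and 0.871 after butyrate. HAND1, a cardiac and extraembryonic transcription factor, was at 0.114, 0 and 0.349 FPKM in control and at 0.856, 0.706 and 0.984 after butyrate. Both genes lie near the floor. The confidence bounds imply 7, 8 and 3 fragments for WNT1 after butyrate. For HAND1 they imply at most 2.0 fragments in control and between 4.4 and 6.4 after butyrate.

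**Figure D4:**
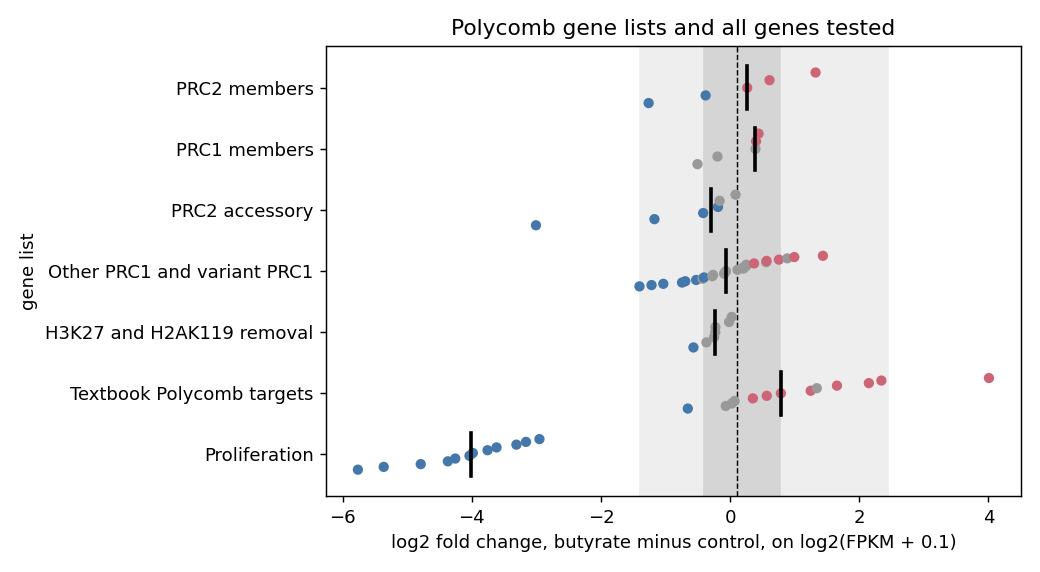
Log2 fold change, butyrate minus control on log2(FPKM + 0.1), of each tested gene in 7 lists, with a black bar at each list's median. Points in a row are ordered by value, red points were called higher, blue lower and grey not called by BH-adjusted p under 0.05. Dark and light bands hold the middle 50% and 90% of all genes tested, with a dashed line at their median of 0.10. The proliferation list has a median of -4.01, and the rightmost target is WNT1, whose value depends on the pseudocount because it was at 0 in control.

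Markers of dividing cells moved with EZH2. All 12 proliferation genes fell, by log2 fold changes from -5.76 to -2.95 (median -4.01), and 11 of them passed the DEG thresholds (MKI67, TOP2A, PCNA, MCM2, MCM3, MCM5, CCNA2, CCNB1, CDK1, TYMS and RRM2). Their summed FPKM was between 639 and 672 in control and between 37.8 and 41.0 after butyrate. The fall of EZH2 was smaller than that of each of these genes, and their part in the changes of the Polycomb members was not tested. In bulk RNA, fewer cells that express a gene and less of its RNA per cell cannot be told apart.

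The epithelial label was checked by its markers. Of 10 epithelial markers, all tested, 7 rose and 1 fell. KRT5 was between 366 and 422 FPKM in control and between 347 and 364 after butyrate and was the marker that fell (log2 fold change -0.17, limma, BH-adjusted p = 0.0323). This call was lost with TPM, without the trend and in most fits that left out 1 culture. CDH1 was between 47.3 and 51.4 in all cultures and did not pass. The epithelial sum was between 2452 and 2560 in control and between 5079 and 5157 after butyrate. Most of it was KRT8, between 1309 and 1416 in control and between 1931 and 1995 after butyrate, and KRT19, between 486 and 506 in control and between 1922 and 1985 after butyrate. KRT14 rose from between 70.6 and 74.9 to between 457 and 552 FPKM, and EPCAM was at most 0.737 FPKM in control and at least 2.99 after butyrate. Of 10 fibroblast markers 8 were tested and all 8 rose, and their list summed to between 4356 and 4512 FPKM in control and between 6374 and 6715 after butyrate. The mesenchymal filament gene VIM made up most of this sum, with 2411 to 2530 FPKM in control and 3585 to 3712 after butyrate. KRT8, KRT19, VIM and COL3A1 were named after their values were seen. COL1A1 was between 1109 and 1173 FPKM in control, with COL1A2 between 438 and 470. COL3A1 was between 303 and 320 in control and between 339 and 396 after butyrate. DCN did not exceed 12.1 and PDGFRA 1.15 in any culture. The fibroblast list summed higher than the epithelial list in every culture, so these lists alone do not settle the epithelial label. THY1, another fibroblast marker, passed the DEG thresholds with a log2 fold change of 2.03. The immune marker PTPRC and the endothelial marker CDH5 were at 0 in all cultures. The 5 immune markers summed to between 4.52 and 8.42 FPKM over all cultures. The endothelial list summed to between 1.95 and 2.07 FPKM in control and between 6.48 and 8.43 after butyrate, with PECAM1 and VWF called higher. Whether these markers bear on the Polycomb values was not tested.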

How the data were processed

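RNA-seq of 3 control and 3 butyrate-treated REPC cultures was analysed. Per the labels and the study's methods, the authors trimmed the reads with Trim Galore 0.4.1, aligned them with STAR, kept uniquely mapped reads and deposited FPKM per gene from Cufflinks with confidence bounds, one table per culture, on UMD3.1. Chromosome numbers were taken from RefSeq (ARS-UCD2.0) by majority of gene names. Total FPKM was lower in every butyrate culture (619401, 624381 and 629037) than in every control culture (678035, 681912 and 679676). The main test left this group difference in place. TPM removes it, and the median log2 fold change of all genes tested then went from 0.10 to 0.23. The bounds imply between 5756609 and 6186809 fragments per library, an approximation. TNC and FOSL2 had a failed estimate and were left out.

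Genes whose mean FPKM reached 0.1 (15813 genes) were tested on log2(FPKM + 0.1) with limma 3.58.1 (R 4.3.3) with a mean-variance trend, two-sided and unpaired. This scale understates changes of genes with low FPKM. A gene rose or fell at a BH-adjusted p under 0.05 over all genes tested. Ratios were tested by exact permutation in scipy 1.17.1. Alternatives were other pseudocounts, filters and scalings, no trend, a replicate block, rows of one name summed, Bonferroni adjustment and each culture left out. Bonferroni adjustment used the main fit and is not among the 16 refitted alternatives. Median centring was added after seeing the data.

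The members and lists were chosen with earlier results of these data known. Named were all members and, per other list, the genes past the DEG thresholds or else up to 4 called genes with the largest change, and defining cell markers. Same-numbered cultures were not paired, since their deviations from the group means correlated at between -0.00431 and 0.0228. Other assays of the study were not used here, and sequences of the members are not shown.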

Additional observations from a re-analysis of the deposited data

How the results depend on the processing

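EZH2, JARID2, RNF2 and BMI1 kept their direction and call in all 16 refitted alternatives, as did the direction of the EZH2 to EZH1 ratio in each alternative run on it, where its change lay between -1.98 and -1.61. The number of members called higher, 5, became 0 with Bonferroni adjustment and was 3 to 4 when any one replicate was left out. The number called lower, 2, became 1 with TPM and 1 with Bonferroni adjustment, and 1 member passed the DEG thresholds when a log2 fold change beyond 1 sufficed. The median log2 fold change of the PRC1 members, 0.39, became 0.18 with a pseudocount of 1 and -0.16 with quantile normalization, and lay between -0.10 and 0.46 when any one replicate was left out. The log2 fold change of CBX7 became -0.16 with quantile normalization and lay between -0.10 (without control replicate 2) and 0.72 when any one replicate was left out. Values of KRT5 and CDH1 also changed sign, KRT5 to 0.062 with quantile normalization and CDH1 to 0.097 with TPM and 0.042 with quantile normalization. For the 10 members, 138 of 160 refitted values kept their direction and call, 14 lost a call, 6 gained one and 2 changed sign. With the replicate number as a block, 4 members were called higher and 3 lower, EED losing its call (limma, BH-adjusted p = 0.0783) and CBX2 gaining one (0.0407). Shared numbers alone do not pair these cultures. The causes were not tested. Among the members, the implied fragments per culture were fewest for CBX7, followed by CBX2, CBX8 and JARID2.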
